A study of Homo sapiens with 12 samples.

Results

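S100 family genes encode small calcium-binding proteins, and pentamidine, the drug given here, is known to bind one of them, S100B, on the face that it uses to hold p53. The question was how strongly 9 genes of this family (S100A2, S100A4, S100A6, S100A10, S100A11, S100A13, S100A14, S100A16 and S100P) were expressed in prostate cancer cells and whether their mRNA changed under pentamidine. The genes were chosen by name and were all found among the 32077 genes of the count table. S100B is not among the 9 and had no entry in that table. RNA was sequenced from cells labelled PC3 and DU145, established human prostate cancer lines that need no androgen. Cells were given 2.5 μmol/L pentamidine or its vehicle, sterile distilled water, for 48 hours. There were 3 samples in each of 4 groups (PC3 vehicle, PC3 pentamidine, DU145 vehicle and DU145 pentamidine), 12 in all, and neither line carried an engineered change. The sources used here do not say whether the 3 samples of a group came from separate cultures, so the p-values measure the spread between these samples, which may be technical.

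Proteins of the S100 family are built from a pair of EF-hand loops and mostly act as dimers. Most open on binding calcium and then hold a partner protein, while S100A10 is locked in the open form and needs no calcium. S100A10 forms a complex with annexin A2 at the cell membrane, S100A11 binds annexin A1, and S100A6, or calcyclin, binds the calcyclin-binding protein CACYBP. S100A4 binds non-muscle myosin and is known for its part in metastasis, S100A2 and S100B bind p53, S100A13 takes part in the release of FGF1 and interleukin 1 alpha without a signal peptide, and S100P is known as a ligand of the receptor RAGE, which the gene AGER encodes. Most genes of the family lie side by side on chromosome 1, within the epidermal differentiation complex.

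In short, 4 of the 9 genes (S100A11, S100A16, S100A6 and S100A10) were abundant in both lines, S100A2 and S100A13 were lower, and S100A4, S100A14 and S100P stayed close to the limit of detection. Vehicle-treated PC3 samples held more S100A6, S100A2 and S100A16 mRNA than vehicle-treated DU145 samples, and less S100A13, S100A11 and S100A10. The responses to pentamidine were small beside these differences. S100A11 rose in both lines, S100A6 rose in DU145 cells, and S100A2 and S100A16 fell in PC3 cells, none of them by a factor of 2 or more. The calls for S100A11 in PC3 cells and S100A6 in DU145 cells held under each alternative tried. Those for S100A11 in DU145 cells and for S100A2 and S100A16 in PC3 cells were lost under some.

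Total counts were 13514195 to 15131436 per sample. Mitochondria-encoded genes took 3.79 to 4.66% of the counts in vehicle-treated samples and 1.97 to 2.76% in pentamidine-treated samples. Leaving them out of the scaling moved none of the 6 tested members across the threshold in any comparison. The lines were checked against genes that mark them. KRT18, an epithelial keratin, had at least 2125 counts in every sample, and KRT8 had 37461 to 38812 counts in vehicle-treated DU145 samples but 286 to 307 in vehicle-treated PC3 samples. EPCAM and CDH1, epithelial adhesion genes that DU145 cells are known to express, had 0 to 2 and 0 to 10 counts over all 12 samples. CTNNA1, a catenin gene known to be lost in PC3 cells, had 6003 to 8545 counts in the samples labelled PC3. These levels go against what is known of the lines, the counts per gene do not show which exons were covered, and PC3 and DU145 are therefore used below as the names on the labels. Genes of leukocytes, endothelium and stroma had at most 12 counts in any sample, except COL1A1 with 25 to 40 in DU145 samples. In RNA from a whole culture, fewer cells that express a gene and less RNA of it per cell cannot be told apart.

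The members are placed in build GRCh38. All but S100P lie on the minus strand of chromosome 1. Distances between genes are measured from the outer 5′ ends of the gene spans, which can differ from the RefSeq start sites used below. S100A10 (chr1:151982915-151994390) and S100A11 (chr1:152032506-152047907) start at -1542 and -1488 kb from the start of S100A6, and the rest start within 95.1 kb of it in the order S100A6 (chr1:153534599-153536244), S100A4 (chr1:153543613-153550136), S100A2 (chr1:153561108-153567890), S100A16 (chr1:153606886-153613145), S100A14 (chr1:153614255-153616986) and S100A13 (chr1:153618787-153631360). S100P lies on the plus strand of chromosome 4 (chr4:6693069-6697170). S100A13 shares 235 exonic bases, or 10.6% of its exonic length, with S100A1 on the other strand and 536 bases, or 24.2%, with the transcript AL162258.1 on its own strand, and S100A6 shares 23 bases with an antisense transcript. Whether the counting used the strand is not given in the sources used here, so the values of S100A13 are uncertain.

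Among the tested members, S100A11 rose in both lines, and S100A2 and S100A16 fell in PC3 cells and did not pass in DU145 cells. The sequences before the start sites are shown for these 3. They were taken from RefSeq start sites (GRCh38.p14), run 5′ to 3′ on the minus strand, and were limited to the part of the 250 bases before the start that lies outside the exons of GENCODE release 29. The S100A11 stretch (chr1:152037036-152037254) and the S100A2 stretch (chr1:153565866-153566094) lie in introns of longer transcripts of the same genes. The S100A16 stretch (chr1:153613146-153613387), read 5′ to 3′, ends at the base next to the gene. Capitals mark a GC box (GGGCGG) in S100A11, an AP-1 motif (TGANTCA) in S100A2 and a pair of E boxes (CAGGTG) in S100A16, each searched on both strands, and no marked motifs overlap.
S100A11: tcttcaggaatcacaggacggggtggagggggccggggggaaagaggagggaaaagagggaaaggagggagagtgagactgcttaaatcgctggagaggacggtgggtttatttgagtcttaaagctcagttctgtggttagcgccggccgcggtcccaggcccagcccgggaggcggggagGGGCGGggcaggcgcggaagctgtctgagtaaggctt
S100A2: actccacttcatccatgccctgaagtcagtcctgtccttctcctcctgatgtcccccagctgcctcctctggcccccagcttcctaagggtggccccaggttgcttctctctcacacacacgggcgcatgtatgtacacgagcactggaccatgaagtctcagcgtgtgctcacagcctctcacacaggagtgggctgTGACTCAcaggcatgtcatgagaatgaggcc
S100A16: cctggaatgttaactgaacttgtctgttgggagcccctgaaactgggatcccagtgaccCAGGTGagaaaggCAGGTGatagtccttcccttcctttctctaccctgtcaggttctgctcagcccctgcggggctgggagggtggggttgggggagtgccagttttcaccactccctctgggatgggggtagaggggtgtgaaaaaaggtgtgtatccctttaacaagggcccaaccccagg
Over all 35116 RefSeq windows of the same length, 42.6% held a GC box, 6.57% the AP-1 motif and 17.5% an E box. The TATA box (TATAAA, 10.7% of windows), the CRE (TGACGTCA, 1.65%), the CCAAT box (CCAAT, 32.0%) and the amino acid response element (TGATGNAA, 3.14%) were not found in these 3 windows. RefSeq lists a second start for S100A16 and for S100A2. The window before the second S100A16 start held 1 GC box and 2 CCAAT boxes, and that of S100A2 held 1 E box. Of the other tested members, the S100A10 window held 1 GC box and the S100A6 window 3. Both of these windows lay wholly within exons, so no stretch of them is shown. S100A13 has 3 windows, of which 1 held a GC box, 1 a TATA box and a CCAAT box, and 1 none of the motifs searched. The matches describe letters in a window and say nothing of a factor bound there.

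The levels of different genes were compared as normalised CPM (the count scaled to a common library size) per kilobase of exon, to correct for gene length. The length was that of all annotated exons together, which can exceed the mRNA expressed, so the order of members depends on it. Before this division, S100A16 at 324 CPM was above S100A11 at 238 in vehicle-treated PC3 cells, and S100A10 at 157 was near S100A6 at 165. In vehicle-treated DU145 cells S100A11 was highest either way, at 367 CPM. In vehicle-treated PC3 cells S100A11 was the highest member at 350 ± 20.5 CPM per kb (SD, n = 3). S100A16 followed at 191 ± 3.28 and S100A6 at 170 ± 24.9, and the samples of these 2 genes overlapped. S100A10 stood at 102 ± 10.2, S100A2 at 15.6 ± 2.22 and S100A13 at 1.57 ± 0.283 CPM per kb, each apart from its neighbours. In vehicle-treated DU145 cells S100A11 was again highest at 540 ± 14.6 CPM per kb, and then came S100A10 at 135 ± 3.96, S100A16 at 74.4 ± 4.22 and S100A6 at 46.6 ± 2.93, all apart. S100A2 at 5.58 ± 0.909 and S100A13 at 3.91 ± 0.748 overlapped. The 3 remaining members had means of 0.054 to 0.313 CPM per kb across both vehicle groups and overlapped with their nearest neighbours in this order in each line. S100A11 stood above 99.6% of the tested genes in vehicle-treated PC3 cells and above 99.7% in DU145 cells on this scale, and S100A13 above 32.0% and 48.0%.

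**Figure D1:**
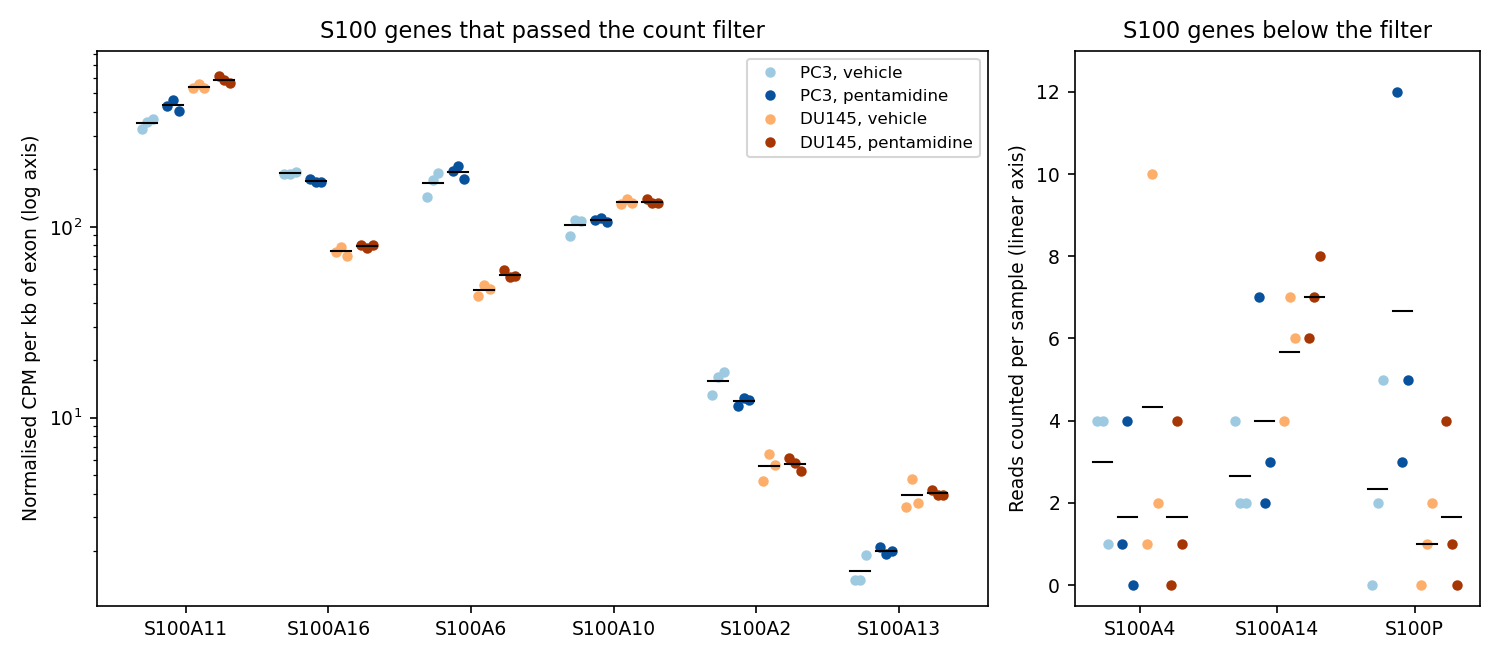
Level of each member in every sample, as normalised CPM per kb on a log axis for the 6 tested genes (left) and as reads counted on a linear axis for the 3 genes below the filter (right). Points are samples, black lines are means of 3 samples, and S100A6, S100A16 and S100A2 sit higher in PC3 than in DU145 samples while S100A11, S100A10 and S100A13 sit lower.

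A gene was tested where enough samples reached about 10 counts, and S100A4, S100A14 and S100P did not pass this filter in any comparison. S100A4, the metastasis-associated member, had 4, 4 and 1 reads in the PC3 vehicle samples, 1, 4 and 0 in PC3 pentamidine, 1, 10 and 2 in DU145 vehicle, and 0, 4 and 1 in DU145 pentamidine. S100A14, which is found in many epithelia, had 2 to 4 reads in PC3 vehicle, 2 to 7 in PC3 pentamidine, 4 to 7 in DU145 vehicle and 6 to 8 in DU145 pentamidine. S100P, the RAGE ligand, had 0, 2 and 5 reads in PC3 vehicle, 12, 3 and 5 in PC3 pentamidine, 0, 1 and 2 in DU145 vehicle, and 4, 1 and 0 in DU145 pentamidine. For S100P in PC3 cells the sums were 7 reads (95% exact Poisson interval 2.81 to 14.4) and 20 reads (12.2 to 30.9), and the samples of the groups overlapped. These intervals cover counting error only and are no test of a change. In the alternative edgeR fit without a filter, none of these 3 genes passed an adjusted p of 0.05 under pentamidine in either line.

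The 9 genes together held 0.0924% ± 0.00603 of all counts in PC3 vehicle samples, 0.0975% ± 0.00387 in PC3 pentamidine, 0.0746% ± 0.00271 in DU145 vehicle and 0.0827% ± 0.00247 in DU145 pentamidine (SD, n = 3 each). The samples of the treatments overlapped in PC3 cells (0.0855 to 0.0967% against 0.0931 to 0.101%). In DU145 cells they lay apart (0.0729 to 0.0777% against 0.0811 to 0.0855%). These are shares of total counts, mitochondria-encoded reads included, without scaling. The scaling factors (TMM) were 0.973 to 0.976 in DU145 vehicle and 1.008 to 1.015 in DU145 pentamidine samples, so scaling narrows the gap in DU145 cells. Within the reads of the 9 genes the makeup differed between the lines. S100A16 took 34.3 to 38.1% of the members' reads in PC3 vehicle samples and 16 to 16.8% in DU145 vehicle samples. S100A11 took 25.9 to 26.3% and 47.5 to 48.4%. Under pentamidine the S100A11 share was 29.7 to 31.2% in PC3 cells, above every vehicle sample, and 48.2 to 49.4% in DU145 cells, overlapping with the vehicle samples.

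**Figure D2:**
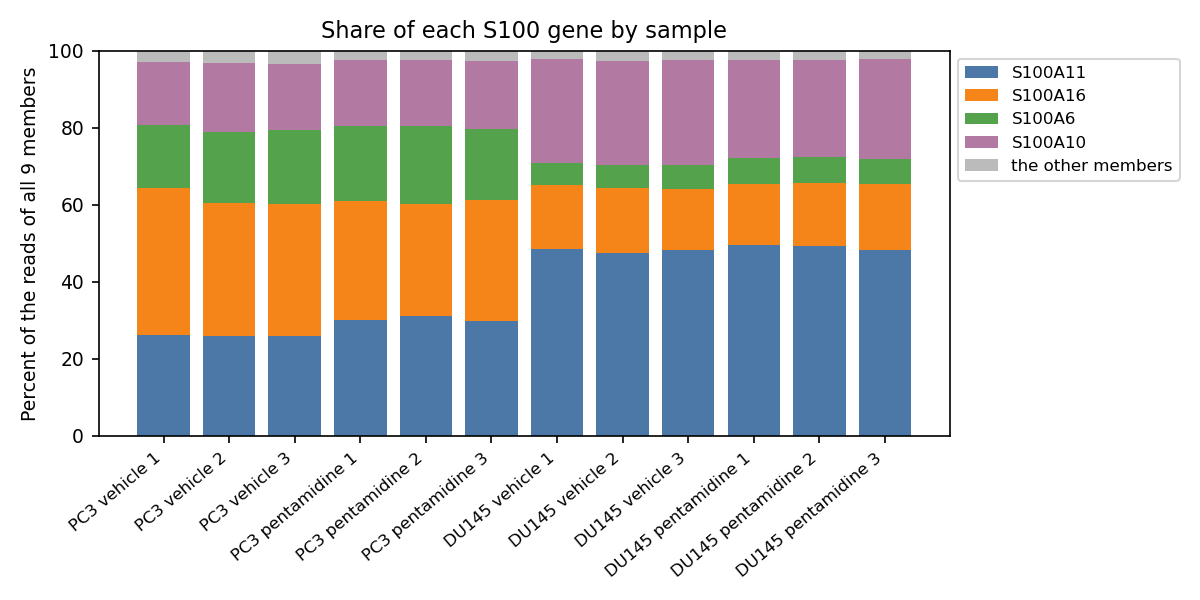
Share of the reads of all 9 members held by each gene (bars, percent, 1 bar per sample). S100A16 and S100A6 make up more of each PC3 bar, and S100A11 and S100A10 more of each DU145 bar.

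The first comparison asked how the untreated lines differ, over the 6 vehicle samples (edgeR quasi-likelihood test, Benjamini-Hochberg adjustment over 14394 genes). All 6 tested members passed an adjusted p of 0.05, 3 higher and 3 lower in PC3 cells, against a background of 65.3% of all genes tested, 31.5% higher and 33.8% lower. Of these, 4 differed by more than 1 on the log2 scale (S100A6, S100A2, S100A16 and S100A13), against 19.2% of all genes. The samples of the lines did not overlap for any of the 6, as for 69.1% of all genes.

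S100A6 had 138, 171 and 185 normalised CPM in the PC3 vehicle samples and 42.2, 47.8 and 45.7 in the DU145 vehicle samples, a log2 difference of 1.84 (SE 0.09, edgeR adjusted p = 3.3e-11). The lowest PC3 sample was well above the highest DU145 sample. S100A16, a widely expressed member, had 322, 320 and 331 CPM in PC3 and 126, 134 and 120 in DU145 samples, and was higher in PC3 by 1.33 (SE 0.05, edgeR adjusted p = 1.1e-12). S100A2, which can bind p53, had 20.6, 25.6 and 27.3 CPM against 7.30, 10.1 and 8.80, a difference of 1.46 (SE 0.13, edgeR adjusted p = 7.2e-08).

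The other 3 members were lower in PC3 cells. S100A13 had 3.12, 3.11 and 4.20 CPM in PC3 vehicle samples and 7.52, 10.6 and 7.91 in DU145 vehicle samples, a log2 difference of -1.35 (SE 0.19, edgeR adjusted p = 7.4e-06). S100A11 had 222, 241 and 250 CPM against 363, 379 and 361, a difference of -0.65 (SE 0.05, edgeR adjusted p = 1.1e-08). S100A10, the partner of annexin A2, had 139, 167 and 165 CPM against 204, 215 and 206, a difference of -0.43 (SE 0.06, edgeR adjusted p = 1.8e-05). By position, S100A6, S100A2 and S100A16, which were higher in PC3 cells, start within 76.9 kb of each other. The 3 lower members lie outside this stretch, S100A13 at 95.1 kb from S100A6. The stretch was not higher in PC3 cells throughout. S100A3, an S100 gene outside the chosen set, starts inside it at 13.1 kb from S100A6 and was lower in PC3 cells. Its log2 difference was -1.17 (SE 0.29, edgeR adjusted p = 0.0019). It had 12 to 14 reads in PC3 vehicle samples and 25 to 30 in DU145 vehicle samples.

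**Figure D3:**
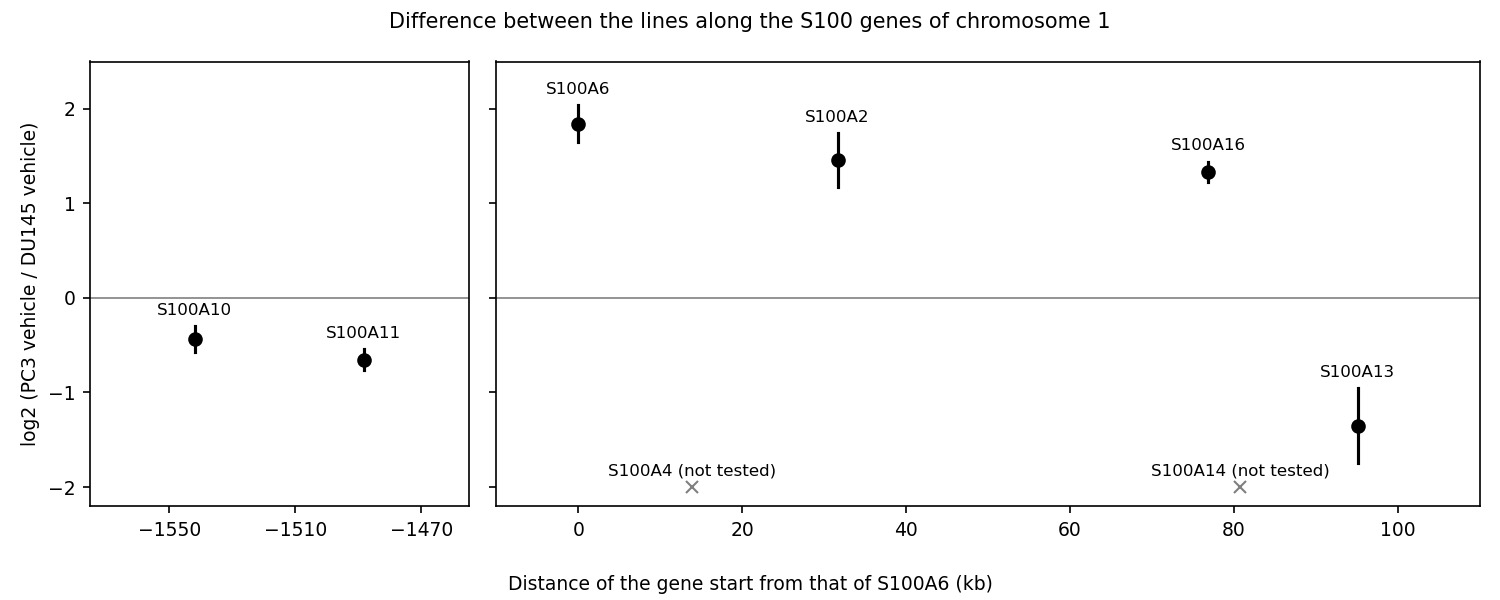
Difference between vehicle-treated PC3 and DU145 cells (log2, bars are 95% confidence intervals) for the members on chromosome 1 by the distance of their start from that of S100A6 in kb. The left panel holds S100A10 and S100A11 and the right panel the other members, with crosses at the foot for S100A4 and S100A14, which were not tested.

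In PC3 cells, the test of pentamidine against vehicle asked whether the drug moved these genes (edgeR, 6 samples, 13861 genes). Past an adjusted p of 0.05 there were 3 of the 6 tested members, against a background of 43.4% of all genes. S100A11 was higher (21.7% of all genes) and S100A2 and S100A16 were lower (21.7%). None changed by more than 1 on the log2 scale, as 4.75% of all genes did, and none did so with DESeq2 or limma. At an unadjusted p under 0.05 there were 4, against 50.3% of all genes. The samples of the groups did not overlap for 4 of the 6 members, against 52.1% of all genes. The median log2 fold change of the 6 was 0.15, against 0.0046 over all genes tested.

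S100A11 had 222, 241 and 250 CPM in PC3 vehicle samples and 294, 314 and 276 in PC3 pentamidine samples. Every treated sample was above every vehicle sample, and the log2 fold change was 0.31 (SE 0.06, edgeR adjusted p = 0.00041), a fold of 1.24. S100A2 had 20.6, 25.6 and 27.3 CPM with vehicle and 18, 19.9 and 19.3 with pentamidine. It fell by 0.36 on the log2 scale (SE 0.11, edgeR adjusted p = 0.011), and the groups lay apart by a small gap. The call for S100A2 was lost without PC3 vehicle replicate 2 (-0.32, adjusted p = 0.0523), without PC3 vehicle replicate 3 (-0.27, 0.0531) or without PC3 pentamidine replicate 1 (-0.32, 0.0593).

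S100A16 had 322, 320 and 331 CPM with vehicle and 304, 293 and 292 with pentamidine in PC3 cells. It fell by 0.12 on the log2 scale (SE 0.05, edgeR adjusted p = 0.0388), the smallest of the 3 changes. The groups did not overlap, but the call did not hold without PC3 vehicle replicate 3 or without any 1 of the 3 pentamidine samples, where the fold changes were -0.14 to -0.11 with adjusted p from 0.0695 to 0.132. S100A6 had 138, 171 and 185 CPM with vehicle and 190, 203 and 173 with pentamidine, so the groups overlapped, and its log2 fold change was 0.20 (SE 0.09, edgeR adjusted p = 0.0729). PC3 vehicle replicate 1 was the low sample of that group, and without it the value was 0.08 (adjusted p = 0.272). Without PC3 vehicle replicate 3 it was 0.29 (adjusted p = 0.00882). PC3 vehicle replicate 1 also stood further from its group over all genes with enough reads. The mean chi-square per gene between its counts and those of replicates 2 and 3 was 5.975 and 7.305. Between replicates 2 and 3 it was 3.641, and within the other groups 3.133 or less.

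S100A13 had 3.12, 3.11 and 4.20 CPM with vehicle and 4.65, 4.26 and 4.45 with pentamidine in PC3 cells. All 3 treated samples were above the vehicle samples, but the log2 fold change of 0.37 (SE 0.19) did not pass the test (edgeR adjusted p = 0.128, 95% interval -0.03 to 0.77). S100A10 had 139, 167 and 165 CPM with vehicle and 168, 172 and 163 with pentamidine, with a log2 fold change of 0.10 (95% interval -0.04 to 0.24, edgeR adjusted p = 0.231). Without PC3 vehicle replicate 1, again the low sample, the S100A10 value was 0.01 (adjusted p = 0.857).

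In DU145 cells (edgeR, 6 samples, 14313 genes) 2 of the 6 tested members, S100A11 and S100A6, were past an adjusted p of 0.05, against a background of 34.0% of all genes. Both were higher, as were 17.2% of all genes, and none was lower, as were 16.8%. None changed by more than 1 on the log2 scale, against 2.03% of all genes, and none did so with DESeq2 or limma. At an unadjusted p under 0.05 there were 3, against 42.7% of all genes. The groups did not overlap for S100A11 and S100A6, against 44.0% of all genes. The median log2 fold change of the 6 was 0.07, against 0.0085 over all genes tested.

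S100A6 had 42.2, 47.8 and 45.7 CPM in DU145 vehicle samples and 57.3, 52.7 and 53.5 in DU145 pentamidine samples. Every treated sample was above every vehicle sample, with a log2 fold change of 0.27 (SE 0.06, edgeR adjusted p = 0.00019), a fold of 1.21. This call held with each sample left out in turn and under each alternative tried. S100A11 had 363, 379 and 361 CPM with vehicle and 419, 397 and 385 with pentamidine. The groups lay apart by a narrow gap, and the log2 fold change was 0.13 (SE 0.03, edgeR adjusted p = 0.0018), a fold of 1.09. In a single fit of all 12 samples it was 0.12 and did not pass (adjusted p = 0.0606).

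The other members did not pass the test in DU145 cells. S100A16 had 126, 134 and 120 CPM with vehicle and 136, 132 and 137 with pentamidine, with overlapping groups and a log2 fold change of 0.10 (95% interval 0.02 to 0.18, edgeR adjusted p = 0.0592), which was 0.14 without DU145 vehicle replicate 2 (adjusted p = 0.0118) and 0.06 without DU145 vehicle replicate 3 (adjusted p = 0.37). S100A10 had 204, 215 and 206 CPM with vehicle and 216, 205 and 206 with pentamidine (log2 fold change 0.01, 95% interval -0.06 to 0.08). S100A2 had 7.30, 10.1 and 8.80 CPM against 9.57, 9.02 and 8.26, with a log2 fold change of 0.03 and an interval from -0.23 to 0.30. S100A13 had 7.52, 10.6 and 7.91 CPM against 9.21, 8.75 and 8.68, with a log2 fold change of 0.04 and an interval from -0.23 to 0.31. The direction of these last 3 values turned, to between -0.08 and -0.01, when DU145 vehicle replicate 1 was left out. S100A13 also turned without DU145 vehicle replicate 3 (-0.03), and S100A10 and S100A2 without DU145 pentamidine replicate 1 (-0.02 each).

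**Figure D4:**
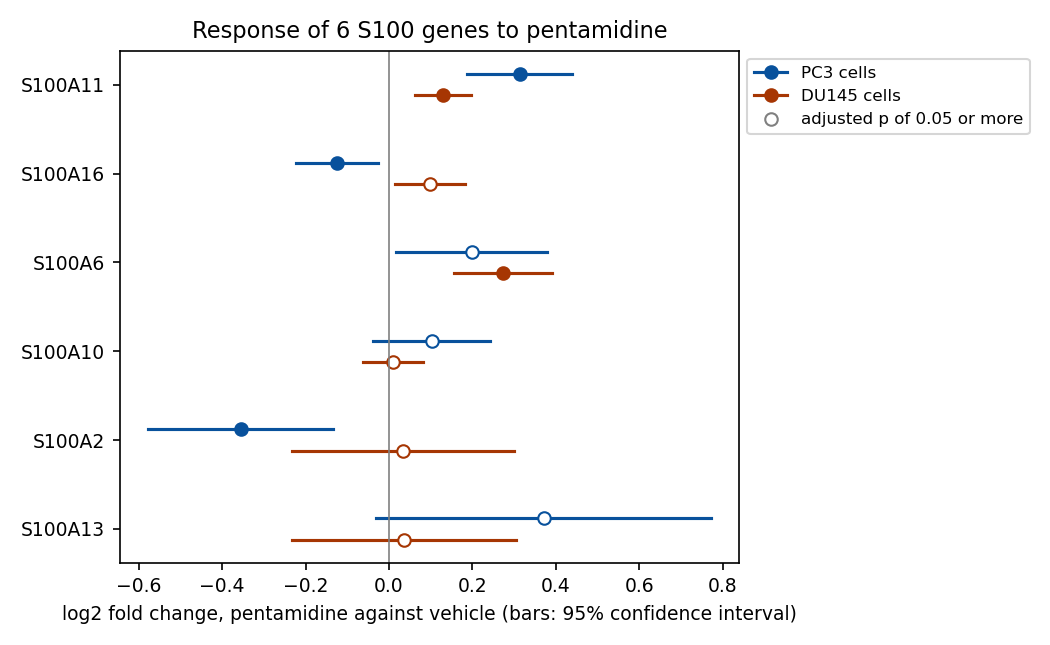
Log2 fold change of the 6 tested members under pentamidine in PC3 (blue) and DU145 cells (brown), with 95% confidence intervals and filled points for an adjusted p under 0.05. S100A11 is above 0 with filled points in both lines, S100A16 lies on different sides of 0, and the intervals of S100A2 and S100A13 are the widest.

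Whether the response differed between the lines was tested as the interaction of treatment and line over all 12 samples (edgeR, 15226 genes). Of the 6 members 1 passed, S100A16, against 20.4% of all genes. Its response in PC3 cells was lower than that in DU145 cells by a log2 difference of -0.22 (SE 0.06, edgeR adjusted p = 0.00953), and without DU145 vehicle replicate 3 this was -0.18 (adjusted p = 0.0637). S100A11 rose more in PC3 cells by 0.18 on fitted values, which did not pass (95% interval 0.04 to 0.33, adjusted p = 0.0591). With library size alone it was 0.12 (adjusted p = 0.238). It passed without PC3 vehicle replicate 3 (0.23, adjusted p = 0.0167), without PC3 pentamidine replicate 3 (0.23, 0.0209) or without DU145 pentamidine replicate 1 (0.22, 0.0389). S100A2, past the threshold in PC3 cells alone, gave -0.39 (95% interval -0.74 to -0.04, adjusted p = 0.116), and -0.49 without PC3 vehicle replicate 1 (adjusted p = 0.0197). S100A6, past the threshold in DU145 cells alone, gave -0.07 (95% interval -0.31 to 0.16), so a difference between the lines was not shown for it.

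Of 12 further S100 genes looked for, 5 were in the count table (S100A1, S100A3, S100A5, S100A9 and S100G), and 2 of them had enough reads to test. S100B was looked for and was not in the table. S100A3, a member known from hair cuticle whose gene lies within the span of S100A4 without sharing exonic bases, had 25, 29 and 30 reads in DU145 vehicle samples and 5, 7 and 4 in DU145 pentamidine samples. Its log2 fold change was -2.39 (SE 0.39, edgeR adjusted p = 1.9e-06), which made it the only tested S100 gene to change by more than 1 on the log2 scale and pass in either line. In PC3 cells S100A3 had 13, 12 and 14 reads with vehicle and 5, 2 and 10 with pentamidine, a log2 fold change of -1.18 (SE 0.48, edgeR adjusted p = 0.0577). The responses of the lines did not differ past the threshold (1.21, SE 0.64, adjusted p = 0.2). S100A1, which shares exonic bases with S100A13 on the other strand, had log2 fold changes of 0.78 in PC3 cells (SE 0.33, edgeR adjusted p = 0.0706) and -0.04 in DU145 cells (SE 0.31, adjusted p = 0.939).

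Annexins are the best-known partners of S100 proteins. Of 13 looked for, 10 were tested in each line. Past the adjusted p, 2 were higher and 1 lower in PC3 cells and 2 higher and 3 lower in DU145 cells. Over all genes tested, 21.7% were higher and 21.7% lower in PC3 cells, and 17.2% and 16.8% in DU145 cells. The medians of the annexins were -0.0058 and 0.0022 on the log2 scale, beside 0.0046 and 0.0085 over all genes. ANXA2, the partner of S100A10, had 1033 ± 71.7 CPM with vehicle and 978 ± 32.6 with pentamidine in PC3 cells, and 798 ± 6.58 and 809 ± 13 in DU145 cells (SD, n = 3 each), with no change past the test (edgeR adjusted p = 0.282 and 0.561). ANXA1, the partner of S100A11, had 202 ± 9.18 CPM in PC3 vehicle samples and 12.1 ± 0.979 in DU145 vehicle samples, and in DU145 cells it fell by 0.63 on the log2 scale under pentamidine (SE 0.12, edgeR adjusted p = 3.8e-05), where S100A11 rose. In PC3 cells ANXA1 gave -0.02 (SE 0.05, adjusted p = 0.794). ANXA3 was the only annexin to change by more than 1 on the log2 scale, in PC3 cells, from 5 to 18 reads per sample with vehicle to 19 to 27 with pentamidine (1.17, SE 0.42, edgeR adjusted p = 0.0329).

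Of 24 genes for other partners and receptors of S100 proteins, 19 were tested. In PC3 cells 3 were higher and 6 lower, and in DU145 cells 4 were higher and 9 lower, with medians of -0.03 and -0.10 on the log2 scale. The shares over all genes tested were 21.7% higher and 21.7% lower in PC3 cells, and 17.2% and 16.8% in DU145 cells. DLC1, whose protein S100A10 binds, went from 65.5 ± 2.06 to 154 ± 6.26 CPM in PC3 cells (1.24, SE 0.05, edgeR adjusted p = 8.9e-12) and from 258 ± 2.08 to 221 ± 5.04 CPM in DU145 cells (-0.22, SE 0.03, adjusted p = 5.4e-07). It was the only gene of this list to change by more than 1 on the log2 scale. AHNAK, a scaffold held by S100A10 and annexin A2, fell by 0.24 in DU145 cells (SE 0.03, edgeR adjusted p = 1.9e-08) and gave -0.05 in PC3 cells (adjusted p = 0.468). AGER, the gene of RAGE, had 72 to 96 reads in PC3 vehicle samples and 80 to 108 in PC3 pentamidine samples, and rose by 0.56 in DU145 cells (SE 0.14, edgeR adjusted p = 0.0011) from 90 to 102 reads to 125 to 172.

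Among 25 other EF-hand calcium sensors in the table, 23 were tested. Of these, 3 were higher and 6 lower in PC3 cells, beside 21.7% and 21.7% of all genes tested. In DU145 cells 3 were higher and 4 lower, beside 17.2% and 16.8%. RCN3, a calcium-binding protein of the secretory pathway, was the only sensor of this list to change by more than 1 on the log2 scale. It had 29 to 41 reads in PC3 vehicle samples and 13 to 16 in PC3 pentamidine samples (-1.30, SE 0.30, edgeR adjusted p = 0.0021). The genes in which an S100 domain is fused to a long repeat, such as filaggrin, were barely read, with 1 of 6 tested in PC3 cells and 3 of 6 in DU145 cells and none past the adjusted p.

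Around the members on chromosome 1, 68 other genes lay between the members or within 500 kb of the outermost. In PC3 cells 26 of them were tested, with 6 higher, 3 lower and a median of 0.10 on the log2 scale, beside 21.7% higher and 21.7% lower over all genes. In DU145 cells 29 were tested, with 7 higher, 3 lower and a median of 0.13, beside 17.2% and 16.8%. Between the vehicle-treated lines 1 of 27 neighbours was higher in PC3 cells and 19 were lower, beside 31.5% and 33.8% of all genes. The median of these neighbours was -0.41, beside -0.0105 over all genes. TUFT1, which codes for tuftelin, changed by more than 1 on the log2 scale, from 18 ± 0.999 to 62.3 ± 1.83 CPM in PC3 cells (1.80, SE 0.07, edgeR adjusted p = 3.2e-12). It rose in DU145 cells too, from 24.6 ± 1.73 to 33.3 ± 1.49 CPM (0.44, SE 0.07, adjusted p = 3.4e-06).

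For each tested member, the gene outside the family with the most similar pattern was looked for among 9402 genes with a mean of at least 10 CPM, by Pearson correlation of log2 CPM over the 12 samples. These correlations are descriptions and mostly carry the difference between the lines, which the samples share. S100A16 was nearest to AXL, a receptor tyrosine kinase (r = 0.997), which had 122 CPM in PC3 vehicle samples and 0.235 in DU145 vehicle samples. S100A6 was nearest to NSMCE1 (r = 0.996), S100A11 to USF2 (r = 0.991), S100A10 to PRDX6 (r = 0.99), S100A2 to SNX7 (r = 0.989) and S100A13 to UBE2M (r = 0.982). Among the members themselves S100A6, S100A2 and S100A16 had r of 0.953 to 0.981 with each other, S100A10, S100A11 and S100A13 had 0.95 to 0.953, and pairs across these 2 sets had -0.941 to -0.819.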

How the data were processed

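Poly(A) RNA of PC3 and DU145 cells was sequenced in 12 samples, 3 per group, assigned from their labels. The authors aligned reads with HISAT2 2.1.0 to GRCh38, per the paper's methods and the submitters' processing notes. The counting tool and its use of strand are not given in the sources used here. The table of whole read counts per gene was deposited by the authors without normalization and is the only table used. Deposited tables of scaled values and of the authors' own fold changes and p-values were not used.

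Repeated entries with identical counts were kept once, which left 32077 genes. Members and lists were chosen with earlier results of these data known. Main tests used edgeR 4.0.16 in R 4.3.3 (glmQLFTest, TMM, filterByExpr at a minimum count of 10, Benjamini-Hochberg adjustment over all genes tested), with each line fitted alone and the interaction over all 12 samples. Standard errors are the fold change divided by the square root of the F statistic. A gene was counted as changed at an adjusted p under 0.05, and separately where log2 fold change also passed 1 in size. Levels between genes were divided by the union exon length of GENCODE release 29. Log2 CPM used a prior count of 2. Alternatives were DESeq2 1.42.0, RLE, library size alone, TMM without mitochondria-encoded genes, other filters, the replicate block, 1 fit of 12 samples, limma 3.58.1 on log2(CPM + 1) and each sample left out. Genes named outside the family are ANXA1, ANXA2, AGER, AHNAK, those past both thresholds in either line, and the most similar gene per member. Scripts were tested on simulated counts with the same spread for all genes and with changes larger than those of the members under pentamidine. That test does not show how well changes as small as these are found. Proteins were not analysed here, and 1 marker gene is not reported here.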

Additional observations from a re-analysis of the deposited data

Results flagged for a closer look

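The response of S100A16 differed between the lines in the test of the interaction. In PC3 cells its log2 fold change under pentamidine was -0.12 and in DU145 cells 0.10, a difference of -0.223 (SE 0.06, edgeR adjusted p = 0.00953, 3 samples in each group). All 3 treated PC3 samples were below the vehicle samples, while the DU145 groups overlapped. Over the alternatives the difference ran from -0.29 to -0.18, with adjusted p from 0.00081 to 0.0637.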

How the results depend on the processing

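All 6 tested members kept their direction and their call between the vehicle-treated lines under every alternative tried. The number of members past an adjusted p of 0.05 was 3 in PC3 cells, and 1 to 3 with 1 sample left out, with the fewest without PC3 pentamidine replicate 1. In DU145 cells it was 2, and 1 in the fit of all 12 samples, where S100A11 gave 0.12 (adjusted p = 0.0606). In the interaction it was 1, and 2 with DESeq2, RLE normalization, no filter on low counts or at least 10 counts in every sample, where S100A11 joined (0.19 to 0.20, against 0.12 with library size alone, adjusted p = 0.238), and 0 to 2 with 1 sample left out. No member both passed the adjusted p and changed by more than 1 on the log2 scale under pentamidine in any alternative. Without a filter S100A16 in PC3 cells gave -0.13 (adjusted p = 0.0662) and S100A6 0.19 (0.00434), and S100A6 gave 0.19 (0.0287) in the fit of all 12 samples. With library size alone S100A16 in DU145 cells gave 0.15 (0.00387). Values near 0 turned with 1 sample left out. S100A13 then ran from -0.0584 to 0.205, S100A10 from -0.0181 to 0.0324 and S100A2 from -0.0842 to 0.152 in DU145 cells, and S100A6 from -0.183 to 0.0211 in the interaction. The cause was not tested.

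No shared deviation of same-numbered samples was seen. Their deviations correlated at -0.125 to 0.032 in PC3 cells and -0.011 to 0.006 in DU145 cells. Those of different-numbered samples correlated at -0.117 to 0.15 and -0.015 to 0.023. These values cannot show whether the samples were paired by culture. With the replicate number as a block, 2 members passed in PC3 cells (S100A16 gave -0.12, adjusted p = 0.0778), 2 in DU145 cells and 1 in the interaction. At 0 to 12 reads per sample, the depth limits S100A4, S100A14 and S100P.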
